A study of Mus musculus with 12 samples.

Results

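AP-1 subunits and other immediate early genes were followed through early blood cells of the mouse fetal liver. The set held 9 genes, Jun, Junb, Jund, Fos, Fosb, Atf3, Egr1, Ier2 and Dusp1, taken by symbol from tables of 24054 genes, and all 9 symbols were found. RNA sequencing covered 12 libraries from E13.5 embryos, 3 in each of 4 groups that cross cell type with Setdb1 genotype. Setdb1 is a histone H3 lysine 9 methyltransferase, and the series sets its mutants against controls. Both cell types were sorted from lineage-depleted liver as LSK cells, the fraction that holds stem and multipotent cells. LT-HSC (long-term haematopoietic stem cells) were the CD150+ CD48- cells and MPP (multipotent progenitors) the CD150- CD48+ cells.

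The 4 groups were LT-HSC mutants, LT-HSC controls, MPP mutants and MPP controls. All 6 mutant libraries carried Setdb1 p/p;vav-cre, in which the Cre recombinase is driven by regulatory sequence of the blood gene Vav1. Control 1 of LT-HSC and controls 1 and 2 of MPP were labelled Setdb1 +/p;+/+ and lacked Cre. The remaining controls, 2 and 3 of LT-HSC and 3 of MPP, were labelled Setdb1 +/p;vav-cre. All controls were therefore heterozygous for the p allele, which the labels do not define, and the strain is not given in the sources used here. About 500 to 1000 cells were sorted per LT-HSC library and 20000 per MPP library, and 10 ng of RNA went into each preparation. Totals of 10119416 to 14113198 expected counts were recorded per library. Controls labelled with and without vav-cre cannot come from the same fetus. For libraries that share a genotype, the labels do not say that replicates came from separate fetuses. Each p-value therefore speaks only of the spread among these libraries, which may be technical. Slamf1, which encodes CD150, averaged 38.6 CPM (counts per 1e+06 counts) in LT-HSC mutants and 36.8 CPM in LT-HSC controls, against 1.24 CPM in MPP mutants and 1.80 CPM in MPP controls. Cd48 averaged 18.7 and 14.5 CPM in LT-HSC mutants and controls, against 170.1 and 228.8 CPM in MPP mutants and controls, so these 2 sort markers followed the labels of the cell types. Markers of the sorted cells also differed by genotype: all 4 MPP markers were called lower in MPP mutants than in MPP controls (log2 fold change -3.61 for Il7r, -0.94 for Flt3, -0.46 for Cd34 and -0.44 for Cd48), and Flt3 was called lower in LT-HSC mutants as well (-1.07, adjusted p = 0.044). Of 3 LSK markers, 2 were called lower in MPP mutants, Ly6a (-1.07) and Ptprc (-0.59). Of 7 LT-HSC markers, Hlf was called lower there (-0.56), and Mllt3 (0.65) and Ctnnal1 (0.43) were called higher. Over all genes tested in MPP, 35% were called. Setdb1 itself did not separate the genotypes. Mutants over controls, its log2 fold change was -0.27 in LT-HSC and -0.12 in MPP, with adjusted p = 0.651 and 0.598 (edgeR's quasi-likelihood test with Benjamini-Hochberg adjustment, used throughout). Because a gene's count sums over all of its exons, this level does not check the genotype labels.

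AP-1 is a dimer of basic leucine zipper proteins, usually a Jun protein joined to a Fos protein or to another Jun protein, that binds DNA and switches target genes on or off. Immediate early genes are copied within minutes of a signal through growth factors, cytokines or stress, without new protein synthesis, and their mRNAs are short-lived. Several end the response again: Dusp1 encodes a phosphatase that removes phosphate from MAP kinases, and Atf3 encodes a zipper protein that often acts as a repressor. In blood stem cells, Junb and Egr1 are known as restraints on proliferation.

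Stretches upstream of 4 of the genes are printed because Jun, Fos and Atf3 were the members with the lowest adjusted p between MPP mutants and controls, whereas Dusp1, with the most matches to the same motif, was not called. Each is the 250 bases before the RefSeq transcription start, on the gene's own strand and read 5′ to 3′, from GRCm38.p6. Capitals mark matches to the cyclic AMP response element (CRE), TGACGTCA in full, bound by CREB and ATF proteins. They mark its core TGACGT on either strand, or the looser form TGACNTCA, which contains the core only where N is G. The stretches lie at chr4:95052223-95052472 on the minus strand for Jun, chr12:85473640-85473889 on the plus strand for Fos, chr1:191183334-191183583 on the minus strand for Atf3 and chr17:26508473-26508722 on the minus strand for Dusp1.
Jun: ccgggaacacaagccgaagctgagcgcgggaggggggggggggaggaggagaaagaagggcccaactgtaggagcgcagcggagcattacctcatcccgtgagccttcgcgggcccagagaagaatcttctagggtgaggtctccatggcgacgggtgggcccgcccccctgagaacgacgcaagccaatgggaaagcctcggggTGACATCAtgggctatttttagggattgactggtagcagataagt
Fos: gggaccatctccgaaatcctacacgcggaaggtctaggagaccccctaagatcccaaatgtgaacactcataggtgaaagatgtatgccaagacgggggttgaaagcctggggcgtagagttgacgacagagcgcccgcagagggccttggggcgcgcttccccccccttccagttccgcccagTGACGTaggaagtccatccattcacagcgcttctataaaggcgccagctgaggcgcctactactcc
Atf3: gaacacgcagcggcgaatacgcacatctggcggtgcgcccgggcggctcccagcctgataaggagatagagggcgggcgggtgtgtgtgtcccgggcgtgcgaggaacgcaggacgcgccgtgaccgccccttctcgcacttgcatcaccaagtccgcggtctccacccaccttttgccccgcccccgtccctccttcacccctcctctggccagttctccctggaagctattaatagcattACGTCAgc
Dusp1: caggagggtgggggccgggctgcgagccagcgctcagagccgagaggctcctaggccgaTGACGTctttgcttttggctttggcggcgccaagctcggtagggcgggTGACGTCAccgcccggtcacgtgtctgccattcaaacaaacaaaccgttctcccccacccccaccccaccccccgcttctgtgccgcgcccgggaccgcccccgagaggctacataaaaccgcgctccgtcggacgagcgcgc

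The motif search ran on RefSeq windows from 250 bases before to 50 bases after the start. They were at hand for 7 of the members, and not for Egr1 and Ier2. Sequence farther upstream was not searched, so a count of 0 does not show that a gene lacks a site. The CRE core began 66 bases upstream of the start in Fos, 8 bases upstream in Atf3 as the reverse complement, and 191 and 143 bases upstream in Dusp1. The looser form began 45 bases upstream in Jun, as TGACATCA, and 143 bases upstream in Dusp1, as TGACGTCA, over the core match already counted. The Jun match is not the full CRE and holds no core, and which proteins bind it was not tested. In all, 4 of the 7 windows held a core or the looser form, against 14.3% of all 32851 windows, and Fosb, Junb and Jund held neither. The canonical AP-1 site TGANTCA was found in 0 of the 7 windows and in 7.81% of all windows. The EGR1 motif GCGTGGGCG was found in 0 of the 7 (0.612% of all windows), and so was the CArG box bound by serum response factor (1.63%). TATAAA stood in 2 of the 7 (13.6% of all windows), in Fos at 33 bases upstream, and CCAAT in 3 of the 7 (37.4%). These are matches of letters and were not tested as binding sites.

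The members differed widely in level. On the length-corrected scale of the deposited TPM (transcripts per 1e+06 transcripts), the median over the 12 libraries was 116 TPM for Ier2, 38.0 TPM for Junb, 32.1 TPM for Jund, 13.7 TPM for Jun, 13.2 TPM for Dusp1, 3.24 TPM for Egr1, 2.21 TPM for Fos and 0.625 TPM for Atf3. Fosb had a median of 0 TPM and never passed 0.07 TPM. Per length, Junb, Jund and Jun stood above Fos and Fosb. The deposited RSEM counts of all 9 genes were whole in every library, with a remainder of exactly 0.

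**Figure D1:**
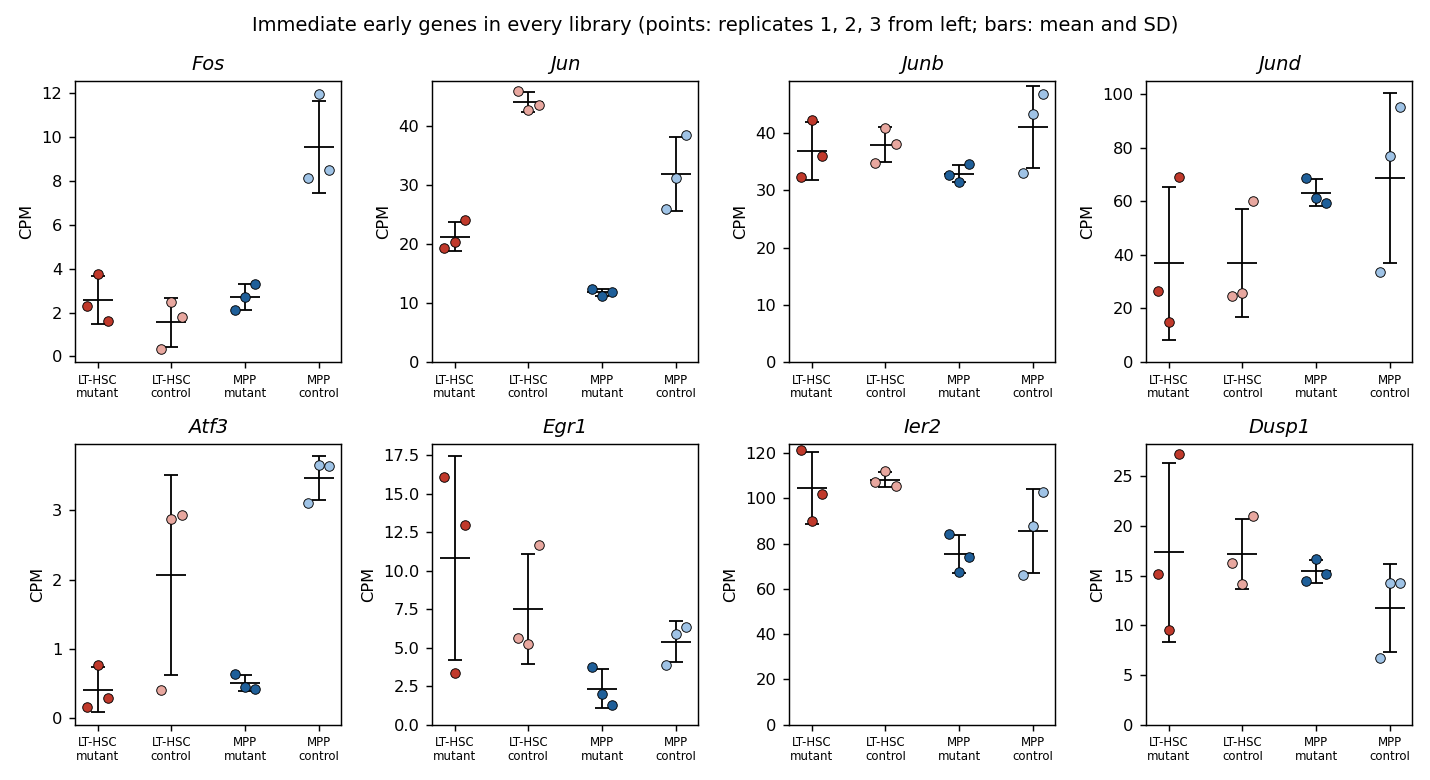
CPM of 8 genes in every library (linear axes from or near 0; points are replicates 1, 2 and 3 from left; long bar mean, short bars SD, n = 3 per group), with LT-HSC mutants, LT-HSC controls, MPP mutants and MPP controls from left to right. Jun lies at 19.2 to 24.0 CPM in LT-HSC mutants and 42.6 to 45.9 CPM in LT-HSC controls, and at 11.1 to 12.4 CPM in MPP mutants and 26.0 to 38.4 CPM in MPP controls, with no overlap between any 2 groups, whereas Fos stands above 8 CPM in MPP controls only; Fosb, at 0 to 2 counts per library, is not drawn.

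One library stood apart among the MPP controls. MPP control 1 had the lowest CPM of the 3 for 8 of the 8 members compared, whereas it was the lowest for 39.5% of the 13249 genes compared. MPP control 3 had the highest CPM for 6 of the 8, and for 33% of all genes. MPP controls 1 and 2 share the label Setdb1 +/p;+/+, so the transgene does not separate control 1 from control 2, and no other library was lowest in its group for more than 4 of the 8. Without MPP control 1, the log2 fold changes of MPP mutants over controls were -1.58 for Jun, -1.93 for Fos, -2.85 for Atf3 and -1.41 for Egr1 (adjusted p = 2.96e-04, 0.00117, 8.47e-04 and 0.0216), and Junb, Jund and Ier2 passed the test in addition. Because MPP control 1 was singled out by the members' own low values, lower log2 fold changes without it follow from that choice. The added calls are therefore no separate evidence of a genotype effect.

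Jun, the founding AP-1 subunit, was lower in the mutants of both cell types. It stood at 19.2, 20.4 and 24.0 CPM in LT-HSC mutants 1, 2 and 3, against 45.9, 42.6 and 43.6 CPM in LT-HSC controls 1, 2 and 3. MPP mutants had 12.4, 11.1 and 11.8 CPM in replicates 1, 2 and 3, against 26.0, 31.2 and 38.4 CPM in MPP controls 1, 2 and 3. Every mutant lay below every control of its cell type, and no 2 of the 4 groups overlapped: LT-HSC controls came highest, then MPP controls, LT-HSC mutants and MPP mutants. The means were 21.2 ± 2.48 CPM in LT-HSC mutants and 44.0 ± 1.65 CPM in LT-HSC controls (SD, n = 3 each), a 2.02-fold lower level (log2 fold change -1.01, SE 0.149, adjusted p = 0.0456). In MPP they were 11.8 ± 0.623 CPM in mutants and 31.8 ± 6.23 CPM in controls (SD, n = 3 each), a 2.73-fold lower level (log2 fold change -1.45, SE 0.161, adjusted p = 6.61e-05). In such bulk libraries, fewer cells of a type and less RNA per cell cannot be told apart.

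The LT-HSC call for Jun was close to its threshold, and the MPP call was not. With the replicate number as a block (same-numbered LT-HSC libraries deviated together), the LT-HSC log2 fold change was -1.02 with adjusted p = 0.0563. Leaving out any LT-HSC library other than mutant 3 also ended the call, with adjusted p = 0.146 without mutant 1, 0.0624 without mutant 2, 0.204 without control 1, 0.221 without control 2 and 0.225 without control 3, while the log2 fold change lay between -1.03 and -0.94 in those 5 fits. In MPP, Jun kept its call in each of the 14 alternatives, including the set against the lone control with vav-cre (log2 fold change -1.76, adjusted p = 0.00779). Jun overlaps the antisense gene Junos by 689 bases, and the library kit does not keep the strand, so reads of the 2 cannot be told apart there.

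Junb and Jund, the other Jun proteins, gave no genotype call. Junb, which often acts against Jun on cell cycle genes, averaged 36.9 ± 5.06 CPM in LT-HSC mutants and 38.0 ± 3.06 CPM in LT-HSC controls (SD, n = 3 each; log2 fold change 0.00, SE 0.162, adjusted p = 0.9996). Its MPP levels were 32.7, 31.6 and 34.7 CPM in mutants 1, 2 and 3, against 33.1, 43.4 and 46.9 CPM in controls 1, 2 and 3. Control 1 lay among the mutants and the other controls lay above them (log2 fold change -0.33, SE 0.137, adjusted p = 0.0805). Jund, often the most evenly expressed Jun gene, varied widely between replicates in 3 of the 4 groups, and least in MPP mutants. It stood at 26.5, 14.8 and 69.1 CPM in LT-HSC mutants 1, 2 and 3, against 24.8, 25.7 and 60.0 CPM in LT-HSC controls 1, 2 and 3, so replicate 3 was far above the others in both genotypes. Its MPP levels were 68.8, 61.3 and 59.5 CPM in mutants 1, 2 and 3, against 33.7, 76.8 and 95.3 CPM in controls 1, 2 and 3, and the groups overlapped (log2 fold change -0.13, SE 0.274, adjusted p = 0.738). Without MPP control 1, singled out for its low values of the members, both passed the test, Junb at -0.47 (adjusted p = 0.00796) and Jund at -0.46 (adjusted p = 0.0131). The antisense gene Gm11175 lies within Jund over 919 bases, with the same limit on strand.

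Jun therefore made up a smaller share of the Jun family transcripts in the mutants. Of the summed TPM of Jun, Junb and Jund, Jun held 16.8 ± 2.03% in LT-HSC mutants and 29.1 ± 4.67% in LT-HSC controls, and 8.31 ± 0.134% in MPP mutants and 17.9 ± 2.74% in MPP controls (SD, n = 3 each). The shares of mutants and controls did not overlap in either cell type, at 14.5 to 18.0% against 24.4 to 33.7% in LT-HSC and 8.15 to 8.41% against 16.0 to 21.1% in MPP. By the means, Junb held the most in LT-HSC, with 53.6 ± 14.2% in mutants and 45.1 ± 6.31% in controls. In LT-HSC mutant 3, Jund held more than Junb (46.4% against 39.1%), and in LT-HSC control 3 the shares were close (37.3% against 38.4%). In MPP, Jund held 49.7 ± 2.35% in mutants and 40.2 ± 8.58% in controls, beside 42.0 ± 2.32% in mutants and 41.8 ± 5.999% in controls for Junb, so in MPP controls the 2 shares were alike. These shares are a description of the same counts, with no test of their own.

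**Figure D2:**
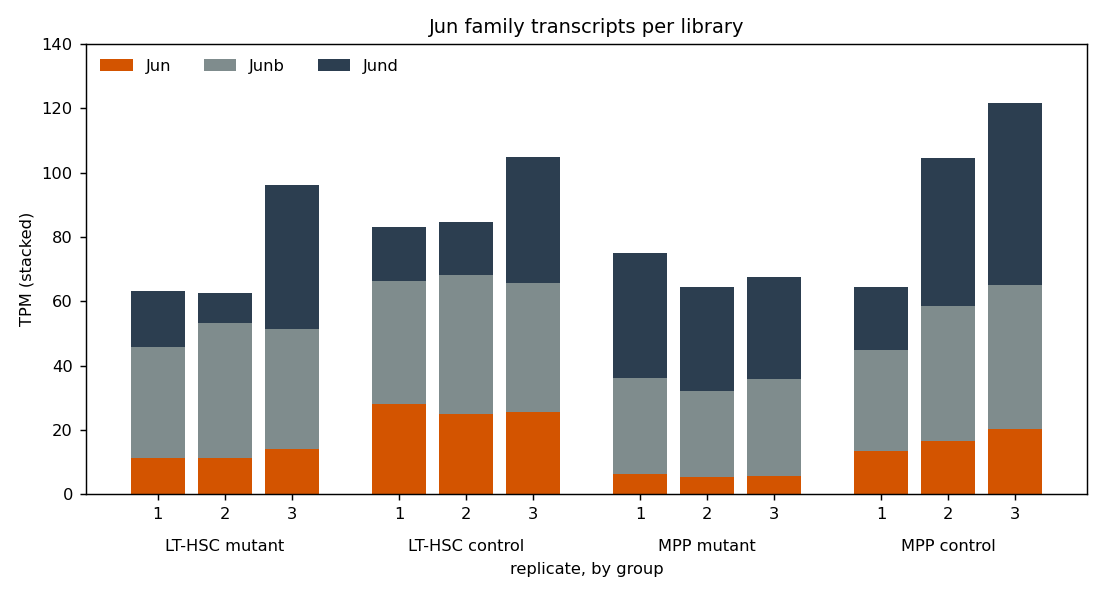
TPM of Jun, Junb and Jund stacked for each of the 12 libraries (vertical axis in TPM from 0; replicates 1 to 3 of LT-HSC mutants, LT-HSC controls, MPP mutants and MPP controls from left to right). The Jun segment, at the base, is shorter in mutants than in controls of both cell types, while the Jund segment varies most between replicates of a group.

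Fos, the partner that gives AP-1 its strongest dimer with Jun, was high in MPP controls alone among the 4 groups. It stood at 2.11, 2.71 and 3.29 CPM in MPP mutants 1, 2 and 3, against 8.16, 11.98 and 8.52 CPM in MPP controls 1, 2 and 3. The groups were apart, with means of 2.70 ± 0.591 CPM in mutants and 9.55 ± 2.11 CPM in controls (SD, n = 3 each), and Fos was 3.55-fold lower in the mutants (log2 fold change -1.83, SE 0.241, adjusted p = 2.12e-04). Against the lone MPP control with vav-cre, the log2 fold change was -1.71 and the call was lost (adjusted p = 0.132). In LT-HSC it was low in either genotype, at 2.30, 3.77 and 1.61 CPM in mutants 1, 2 and 3, against 0.332, 2.50 and 1.81 CPM in controls 1, 2 and 3. These are 5 to 39 counts a library, and the groups overlapped (log2 fold change 0.77, SE 0.698, adjusted p = 0.789). Below the MPP controls, the ranges of the other 3 groups overlapped one with the next.

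Atf3 was lower in MPP mutants by the largest factor of the 8 members tested. It stood at 0.641, 0.452 and 0.422 CPM in MPP mutants 1, 2 and 3, against 3.11, 3.66 and 3.64 CPM in MPP controls 1, 2 and 3, which is 5 to 7 counts a library in mutants and 40 to 44 in controls. Because mutants lay below the filter's minimum count of 10, Atf3 entered the test through the controls alone and could hardly be called higher. The groups did not overlap, and the level was 6.84-fold lower in mutants (log2 fold change -2.77, SE 0.317, adjusted p = 7.92e-05). Only against the lone control with vav-cre was that call lost among the 13 alternatives that could be fitted (log2 fold change -2.88, adjusted p = 0.094). In LT-HSC, Atf3 did not pass the filter on low counts. It stood at 0.164, 0.773 and 0.292 CPM in LT-HSC mutants 1, 2 and 3, against 0.398, 2.87 and 2.93 CPM in LT-HSC controls 1, 2 and 3. Control 1 fell within the range of the mutants and controls 2 and 3 lay above it, and without the filter the log2 fold change was -2.30 with adjusted p = 0.466.

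Fosb, a close relative of Fos, was at the limit of detection. It had 0 counts in all 6 LT-HSC libraries, which allows up to 0.0829 CPM in the mutant group and 0.0715 CPM in the control group (3 counts over the group's total, counting error only). In MPP it had 0, 2 and 0 counts in mutants 1, 2 and 3, against 1, 1 and 2 counts in controls 1, 2 and 3. No comparison of Fosb was made.

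Egr1, a zinc finger activator that shares the upstream signals of Fos, was called lower in MPP mutants and was not called in LT-HSC, with wide spread in both; the difference between the cell types did not pass its test. Its MPP levels were 3.76, 1.99 and 1.26 CPM in mutants 1, 2 and 3, against 3.89, 5.90 and 6.37 CPM in controls 1, 2 and 3. Every mutant lay below every control, mutant 1 by little, and the level was 2.33-fold lower in mutants (log2 fold change -1.22, SE 0.358, adjusted p = 0.0211). That call was lost with the replicate block (adjusted p = 0.0503), in the fit of all 12 libraries (0.154), against the lone control with vav-cre (0.373), and without control 2 (0.0646), control 3 (0.0523), mutant 2 (0.0790) or mutant 3 (0.0774). In LT-HSC, Egr1 stood at 16.1, 3.38 and 12.9 CPM in mutants 1, 2 and 3, against 5.64, 5.23 and 11.7 CPM in controls 1, 2 and 3. Mutant 2 was the lowest of the 6 libraries and mutant 1 the highest, so the groups overlapped (log2 fold change 0.56, SE 0.556, adjusted p = 0.806).

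Ier2, the most abundant member, encodes a nuclear protein with no DNA-binding domain of the AP-1 kind. It averaged 104.6 ± 15.8 CPM in LT-HSC mutants and 108.3 ± 3.29 CPM in LT-HSC controls, and 75.3 ± 8.48 CPM in MPP mutants and 85.6 ± 18.5 CPM in MPP controls (SD, n = 3 each). The genotypes overlapped in both cell types, with log2 fold changes of -0.01 (SE 0.119, adjusted p = 0.985) and -0.20 (SE 0.149, adjusted p = 0.324). Without MPP control 1, singled out for its low values of the members, the MPP value was -0.36 (adjusted p = 0.0367). Dusp1 stood at 15.2, 9.56 and 27.3 CPM in LT-HSC mutants 1, 2 and 3, against 16.3, 14.2 and 21.1 CPM in LT-HSC controls 1, 2 and 3 (log2 fold change 0.06, SE 0.369, adjusted p = 0.975). Its MPP levels were 14.5, 16.7 and 15.2 CPM in mutants 1, 2 and 3, against 6.69, 14.3 and 14.3 CPM in controls 1, 2 and 3. Every MPP mutant lay above every MPP control, by little for controls 2 and 3, and the difference did not pass the test (log2 fold change 0.38, SE 0.245, adjusted p = 0.249).

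**Figure D3:**
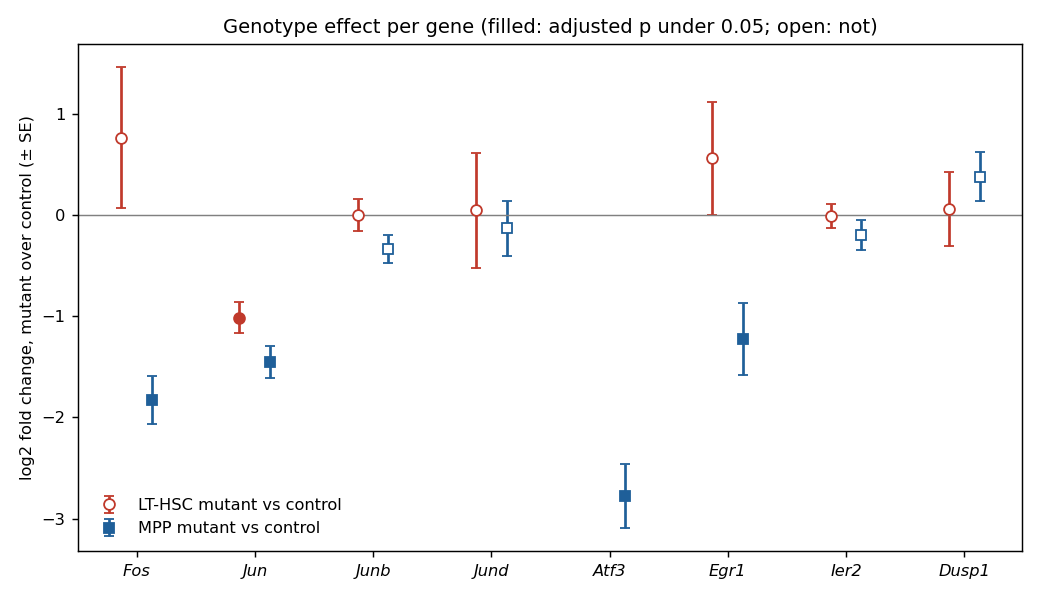
Log2 fold change of mutant over control with its SE for 8 genes, in LT-HSC (circles) and MPP (squares); filled symbols passed edgeR's quasi-likelihood test at an adjusted p under 0.05. Jun lies below 0 in both cell types, Fos, Atf3 and Egr1 are filled in MPP only, and Atf3 has no LT-HSC value because it did not pass the filter there; the difference between cell types passed the test for 0 of the 8 genes.

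In the LT-HSC genotype comparison, 1 of the 7 members tested was called, Jun, against a background of 0.42% of 12847 genes called in either direction and 0.163% called lower. That fit had no replicate block, and with the block the call was lost. The groups of Jun were also the only ones of the 9 that did not overlap, where 16.3% of all genes tested had groups apart. The median log2 fold change of the 7 members was 0.05, beside 0.03 over all genes. In the MPP genotype comparison, 4 of the 8 members tested were called, all lower. Of these, Atf3 had passed the filter through the controls alone. Over all 12392 genes tested, 35% were called in either direction and 18.5% were called lower. The groups of 5 members did not overlap, 4 lower and 1 higher, against 50.5% of all genes, 25% lower and 25.4% higher. The median of the 8 members was -0.78, beside -0.01 over all genes.

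A difference between the genotype effects was tested as an interaction over all 12 libraries. It was called for 0 of the 8 members tested, against 0.377% of 13249 genes. At an unadjusted p under 0.05 there were 2, Fos with a difference of 2.53 on the log2 scale (LT-HSC effect minus MPP effect, SE 0.73, adjusted p = 0.172) and Egr1 with 1.73 (SE 0.771, adjusted p = 0.387). DESeq2 called 1 member, Fos (2.57, adjusted p = 0.0338), and so did edgeR without LT-HSC mutant 3 (2.78, adjusted p = 0.0393). For Jun the difference was 0.38 (SE 0.215, adjusted p = 0.53). The effects in LT-HSC and MPP are therefore not shown to differ for any member by the planned test.

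LT-HSC and MPP were also set against each other within each genotype. In mutants, 3 of the 7 members tested were higher in LT-HSC, where 22.8% of 12452 genes were called and 14.9% were called higher. Jun was higher in LT-HSC mutants than in MPP mutants by 0.90 on the log2 scale (SE 0.17, adjusted p = 0.0127), Ier2 by 0.52 (SE 0.139, adjusted p = 0.0379) and Egr1 by 2.25 (SE 0.631, adjusted p = 0.0428), although the Egr1 ranges overlapped. Without MPP mutant 2 or 3 none of the 3 kept its call (adjusted p from 0.0696 to 0.156), and without LT-HSC mutant 1 or MPP mutant 1 only Jun did. In controls, 2 of the 8 members tested were called, where 38.5% of 12834 genes were called, 20.5% higher and 18% lower. Fos was lower in LT-HSC controls than in MPP controls by 2.62 on the log2 scale, written as a log2 fold change of -2.62 (SE 0.494, adjusted p = 0.00253), and Jun was higher (0.48, SE 0.151, adjusted p = 0.0306). The Jun call in controls was lost without LT-HSC control 1 (adjusted p = 0.0827), LT-HSC control 2 (0.0557), MPP control 1 (0.0793) or MPP control 2 (0.107), and with only controls that carry vav-cre both calls were lost (Fos -2.04, adjusted p = 0.0818; Jun 0.10, adjusted p = 0.817). Groups did not overlap for 2 members in mutants and 5 in controls, Fosb at 0 to 2 counts among them, against 47.1% and 51.1% of all genes.

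Within groups, Jund and Dusp1 went together, with r = 0.95 over the deviations of the 12 libraries from their group means. So did Fos and Atf3 (r = 0.86), both at low counts in some groups, and Egr1 and Jund (r = 0.72). Jun and Fos did not (r = -0.27). Such correlations share library, depth and scaling and are given as a description.

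Markers of other cell types differed between MPP mutants and controls too, macrophage, hepatoblast and lymphoid markers in the same direction as Jun, Fos and Atf3. Summed over the 11 macrophage markers measured of 12 listed, the level was 436, 329 and 460 CPM in MPP mutants 1, 2 and 3, against 1924, 2029 and 1397 CPM in MPP controls 1, 2 and 3. Of these markers 10 of 11 were called lower in MPP mutants and none was at 0 in any group, with a median log2 fold change of -1.98. Over all genes tested in MPP, 18.5% were called lower and 16.5% higher. In LT-HSC the sum was 562, 1267 and 565 CPM in mutants 1, 2 and 3, against 1129, 1426 and 1416 CPM in controls 1, 2 and 3, and 0 of 11 were called by edgeR (3 at an unadjusted p under 0.05, 1 by DESeq2), but 4 without LT-HSC mutant 2. The sum in LT-HSC mutant 2 fell within the range of the controls, but it varied by marker. For 4 of the 11 markers, Cd5l, Vcam1, Marco and Timd4, every LT-HSC mutant lay below every LT-HSC control. Among all genes tested in LT-HSC, 16.3% had groups apart in either direction. Vcam1 stood at 0.146 to 10.2 CPM in mutants and 98.0 to 116.1 CPM in controls, while Lyz2 stood at 439.9 to 515.5 CPM in mutants and 379.5 to 482.2 CPM in controls. Those 5 were named after their values were seen. LT-HSC control 1, the lowest LT-HSC control in the macrophage and hepatoblast sums, lacked Cre. It was the lowest of the 3 for 4 of the 8 members, Fos and Atf3 among them, and for 33.9% of all genes. It was the highest of the 3 for Jun. MPP control 3, the lowest MPP control in macrophage markers, was the highest of the 3 for 6 of the 8 members and for 33% of all genes. These libraries were picked after their values were seen. The 11 hepatoblast markers summed to between 62.6 and 108.2 CPM in MPP mutants and between 236.6 and 516.9 CPM in MPP controls, with 5 called lower (11 without MPP control 2, and 2 without MPP control 1, control 3, mutant 1 or mutant 3). In LT-HSC they summed to between 61.0 and 432.5 CPM in mutants and between 505.1 and 1694 CPM in controls. Of these 11, edgeR called 0 in LT-HSC and DESeq2 called 2, with a median log2 fold change of -2.575 by edgeR. At an unadjusted p under 0.05 there were 8, where 9.5% of all genes tested had such a p. Erythroid markers went the other way in MPP, with sums of 4083 to 5940 CPM in mutants and 1374 to 2060 CPM in controls and 10 of 11 called higher. Their sums lay at 2785 to 4744 CPM in LT-HSC mutants and 2554 to 3664 CPM in LT-HSC controls. There 1 of 11 was called, Car1, at 793.4 ± 496.1 CPM in mutants and 7.90 ± 2.03 CPM in controls (log2 fold change 6.70, adjusted p = 0.00201). The median log2 fold change of the 11 in LT-HSC was -0.04. None of the macrophage, hepatoblast or erythroid markers was at 0 throughout a group. Lymphoid markers, 7 measured of 8 listed, summed to 13.47 to 23.2 CPM in MPP mutants and 129.4 to 204.6 CPM in MPP controls, and all 5 tested were called lower, among them Ccr9 with a log2 fold change of -4.98, Il7r with -3.61, Rag1 with -3.53 and Rag2 with -1.57 (adjusted p at most 3.58e-04 for these 4); Cd3e was at 0 in MPP of both genotypes. In LT-HSC lymphoid sums were 0.739 to 1.46 CPM in mutants and 0.827 to 5.08 CPM in controls, and none was tested. Of the other lists in MPP, 2 of 4 mast and basophil markers were called lower, Mcpt8 and Prss34, the second at 0 in all 3 mutants. Of 7 endothelial markers 4 were lower and 1 higher, of 9 granulocyte and monocyte markers 2 were lower and 4 higher, of 4 megakaryocyte markers 1 was lower, and the 1 stromal marker tested was not called. Some of these markers were too low in MPP mutants for the filter and entered the test through the controls. Vcam1, Rag1, Cd79a, Mcpt8, Prss34, Stab2 and Cdh5 were among them, and could hardly be called higher. Lyve1, the endothelial marker called higher, was too low in MPP controls and could hardly be called lower. The part of these cell types in the AP-1 values was not tested.

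**Figure D4:**
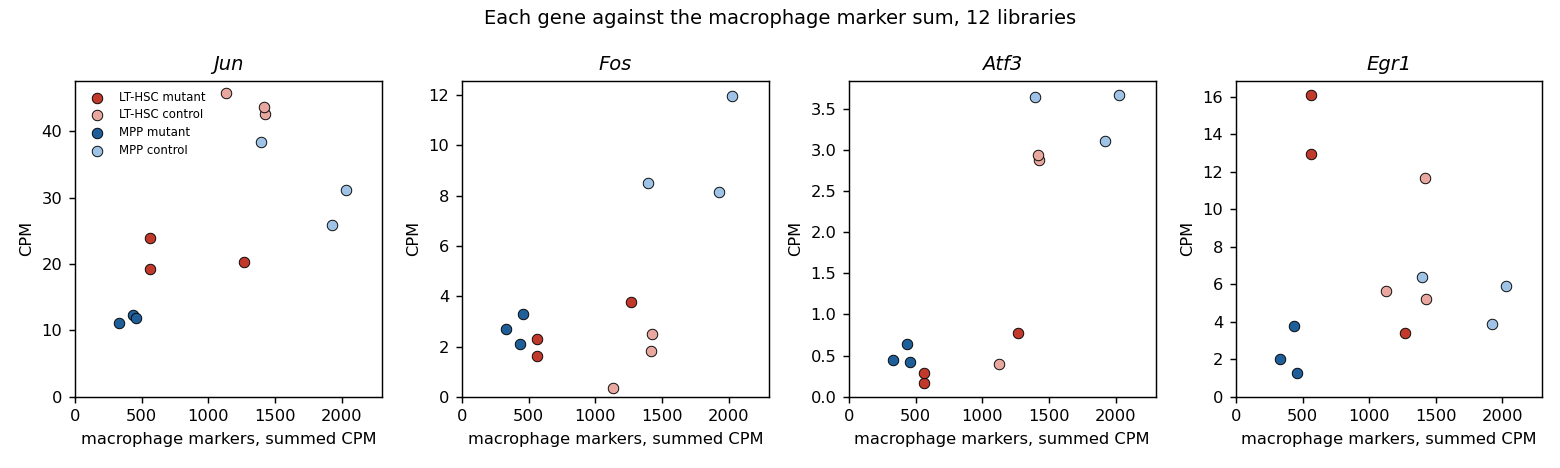
CPM of Jun, Fos, Atf3 and Egr1 (vertical axes) against the summed CPM of 11 macrophage markers (horizontal axis) in the 12 libraries, coloured by group. MPP mutants sit at the lower left of the Jun, Fos and Atf3 panels and MPP controls to the right and higher; LT-HSC mutants lie at sums of 562 to 1267 CPM and LT-HSC controls at 1129 to 1426 CPM.

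Other genes of the pathway were read from 5 lists, chosen like the members with earlier results of these data known. Their counts in MPP stand against 35% of all genes called, 16.5% higher and 18.5% lower. Of 11 other AP-1 and ATF family genes tested in MPP, 1 was higher and 2 were lower in mutants, a smaller share than over all genes. Batf3, a Batf protein needed for a class of dendritic cells, averaged 0.208 ± 0.0555 CPM in MPP mutants and 2.58 ± 0.349 CPM in MPP controls (log2 fold change -3.59, adjusted p = 6.10e-05). The Fos relative Fosl2 averaged 6.16 ± 0.953 CPM in mutants and 11.8 ± 0.777 CPM in controls (-0.96, adjusted p = 0.00171), and Atf4, the activator of the integrated stress response, 181.5 ± 21.1 CPM in mutants and 115.5 ± 11.2 CPM in controls (0.64, adjusted p = 0.00102). The median log2 fold change of this list was 0.02. Of 10 other immediate early genes tested, 0 were higher and 4 were lower, with a median of -0.36; the share called was close to that of all genes. They were the zinc finger factor Klf4 (0.558 ± 0.109 CPM in MPP mutants and 5.51 ± 1.37 CPM in MPP controls, -3.29, adjusted p = 3.09e-05), the nuclear receptor Nr4a1 (-1.35, adjusted p = 0.00354), Klf6 (-0.53, adjusted p = 0.00326) and Klf10 (-0.40, adjusted p = 0.00421). Myc gave 0.03 (adjusted p = 0.795). Batf3 and Klf4, too low in mutants for the filter, were tested through the controls alone.

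Among 22 feedback inhibitors of the response, such as dual-specificity phosphatases, Sprouty proteins and mRNA decay factors, 1 was higher and 6 were lower in MPP mutants, with a median of -0.26; without MPP control 2, 4 were called. The share called was near that of all genes. Zfp36, whose protein destroys AU-rich mRNAs such as those of immediate early genes, averaged 28.7 ± 1.11 CPM in mutants and 54.0 ± 3.73 CPM in controls (-0.93, adjusted p = 8.22e-05). The antiproliferative genes Btg1 and Btg2 fell by 0.83 and 0.71 on the log2 scale (adjusted p = 0.00108 and 0.00111), and Ppp1r15a, which ends the integrated stress response, was higher (0.82, adjusted p = 6.89e-04). Of 25 genes that carry or receive the MAP kinase and serum response factor signal, 3 were higher and 8 were lower, with a median of -0.01, as over all genes; without MPP control 2 or MPP mutant 2, 5 were called, and without MPP mutant 3, 3 were. Examples were the serum response factor partner Elk3 (-0.59, adjusted p = 8.75e-04), the kinase ERK1 encoded by Mapk3 (-0.56, adjusted p = 0.00339), the CRE-binding factor Crem (-0.67, adjusted p = 0.0079) and Map3k1 (-0.36, adjusted p = 0.0161), whose call was lost without MPP control 2 (adjusted p = 0.0619) or MPP mutant 3 (0.0885). Heat shock genes are another stress-induced group. Of 11 tested, 7 were higher and 0 were lower in MPP mutants, with a median of 0.43, where 16.5% of all genes were called higher. The co-chaperone Bag3 averaged 10.9 ± 1.26 CPM in mutants and 4.66 ± 0.607 CPM in controls (1.21, adjusted p = 5.63e-04), and Hspe1 and Hsph1 gave 0.63 and 0.59 (adjusted p = 6.50e-04 and 0.00101). Hspa1a gave 2.76 (adjusted p = 0.00428) from 4.90 ± 4.08 CPM in mutants and 0.708 ± 0.224 CPM in controls, but has the near-identical copy Hspa1b, between which counting can divide reads. Hspa1a, among the 7 called higher, was too low in MPP controls for the filter. It entered the test chiefly through the mutants and could hardly be called lower. Against the lone MPP control with vav-cre, where 125 genes were called in all, the 19 genes of these 5 lists named here for MPP, Myc aside, kept their direction, and 1 of them, Zfp36, kept its call (adjusted p = 0.0485).

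In LT-HSC, edgeR called 0 genes of any of these 5 lists between mutants and controls, and DESeq2 called 0 as well. At an unadjusted p under 0.05 there were 2 of 11 in the family list, 2 of 9 immediate early genes, 2 of 22 feedback inhibitors, 2 of 25 signalling genes and 1 of 11 heat shock genes, where 9.5% of all genes tested had such a p; the last 3 counts are near that share. The medians lay between -0.27 for other immediate early genes and 0.34 for heat shock genes. Between the cell types, Batf and its relative Batf2 were higher in LT-HSC in both genotypes. Batf gave 0.83 in mutants and 0.60 in controls (adjusted p = 0.0213 and 0.0144), and Batf2 gave 2.59 and 2.27 (adjusted p = 0.0165 and 0.00169). In mutants both calls were lost without LT-HSC mutant 1, MPP mutant 2 or MPP mutant 3 (adjusted p from 0.0538 to 0.1002), and in controls that of Batf was lost without LT-HSC control 2 (0.0545) or MPP control 2 (0.0707). Myc was lower in LT-HSC in both, at -0.97 in mutants (adjusted p = 0.003) and -1.23 in controls (adjusted p = 1.84e-05). Klf4 was lower in LT-HSC controls than in MPP controls, with 0.788 ± 0.571 CPM in LT-HSC and 5.51 ± 1.37 CPM in MPP (-2.80, adjusted p = 0.00275). With only controls that carry vav-cre the log2 fold change was -2.21 and the call was lost. Klf4 was too low in LT-HSC for the filter. It was tested through the MPP controls and could hardly be called higher in LT-HSC.

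**Figure D5:**
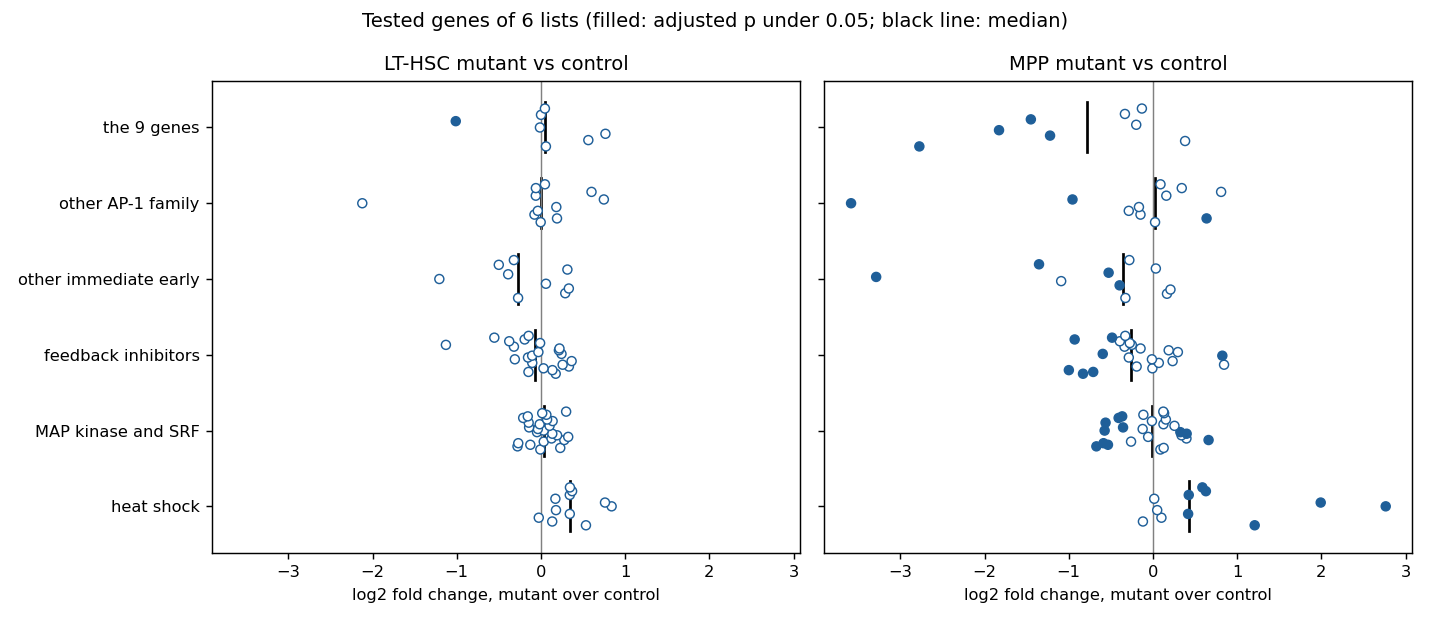
Log2 fold change of mutant over control for every tested gene of 6 lists (rows), in LT-HSC on the left and MPP on the right; filled points passed edgeR's quasi-likelihood test at an adjusted p under 0.05, and the black line is the list's median. In MPP the 9 genes have the lowest median, -0.78, and heat shock genes the highest, 0.43; in LT-HSC 1 point, Jun, is filled.

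The genes whose pattern was most like that of the members were found over the 12 libraries among 9474 other genes with a mean of at least 10 CPM. Against the mean profile of the 8 tested members, the highest Pearson r was 0.89 for Casd1, followed by 0.87 for Csnk1e, 0.87 for Cyth1, 0.86 for Ssfa2, 0.84 for Tfeb, 0.84 for Fam98c, 0.84 for Acaa1a and 0.83 for Fscn1. Once the 4 group means were removed, the r of these 8 lay between 0.65 for Fscn1 and 0.87 for Csnk1e, and none of them was among the 8 highest. Gene by gene, the closest were Sdc1 for Jun (r = 0.94), Rac1 for Jund (0.99), Ptpn1 for Junb (0.82), Vrk2 for Fos (0.92), Mgme1 for Atf3 (0.94), Pard3b for Egr1 (0.93), BC029722 for Ier2 (0.97) and Rfk for Dusp1 (0.95). Sdc1, a cell surface proteoglycan, averaged 37.0 ± 5.54 CPM in LT-HSC mutants and 60.1 ± 1.87 CPM in LT-HSC controls, and 17.8 ± 4.87 CPM in MPP mutants and 50.9 ± 5.22 CPM in MPP controls, in the same order as Jun. Rac1, a small GTPase, ranged from 68.0 to 243.5 CPM among LT-HSC mutants and from 105.8 to 210.3 CPM among LT-HSC controls. Libraries share depth and scaling, and these values describe 12 points.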

How the data were processed

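The 12 deposited tables, 1 per library, hold expected counts per gene estimated by RSEM and TPM values, per the file headers. Per the submitters' processing notes, the authors used STAR and RSEM with mm10 (versions: not given in the sources used here). Per the labels' protocols, libraries came from a low-input kit, of a type that loses the strand. Totals were 10119416 to 14113198 expected counts, with 14863 to 15780 genes above 0. No replicates matched within sampling noise.

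Expected counts were rounded and tested with edgeR 4.0.16 in R 4.3.3: quasi-likelihood test, TMM scaling, filterByExpr by group (minimum count 10, minimum total 15), Benjamini-Hochberg adjustment over all genes tested and a threshold of 0.05. Each comparison of groups used its 6 libraries, and the interaction all 12. CPM values use TMM over the 12 libraries, and likeness used log2 CPM with a prior count of 2. The fits were tested on simulated counts. Alternatives were other scalings, DESeq2 1.42.0, other filters, a replicate block, controls with vav-cre only, a joint fit and leaving out each library.

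Replicate numbers come from the titles. Same-numbered LT-HSC mutants and controls deviated together across genes (r = 0.11, 0.17 and 0.19), which counts here as pairing, though the labels do not explain the numbers. This was not so in MPP (r = -0.07, -0.18 and -0.12). Nor was it so for all numbers between LT-HSC and MPP, in controls (r = 0.05, -0.23 and 0.16) or in mutants (r = 0.16, -0.07 and 0.16). LT-HSC control 2 and MPP control 2 also differ in vav-cre, so the block has no such basis there. Results are from fits without the block unless it is named.

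All 9 members are named, with Setdb1 and, per list and comparison, at most 4 called genes with the smallest p; Junb, Egr1 and other members were named whatever their value, and Myc in MPP after its value was seen. The members, lists and motifs were chosen with earlier results of these data known. Positions and promoters are RefSeq's on GRCm38.p6.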

Additional observations from a re-analysis of the deposited data

How the results depend on the processing

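Of the members called, the LT-HSC genotype comparison had 1, but 0 with the replicate block and 0 to 1 when a library was left out. The MPP comparison had 4, but 1 with only vav-cre controls (a lone control, assumed to vary like the other groups) and 3 to 7 when a library was left out, the 7 without control 1. Between cell types, mutants had 3 (0 to 4 when a library was left out, the 4 without LT-HSC mutant 3, where Jund gave -1.56 with adjusted p = 0.00248), and controls had 2 (4 with the replicate block, adding Jund and Ier2, 0 with only vav-cre controls, 1 to 3 when a library was left out). The interaction had 0 (1 with DESeq2, 0 to 1 when a library was left out). The replicate block changed no other call of a member than these and that of Egr1 in MPP. No direction of a member that was called reversed. Junb in MPP passed with upper-quartile scaling (adjusted p = 0.046).

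Genes called, in all: LT-HSC genotype 54 (261 with DESeq2, 250 in the joint fit, 13 without control 3 to 102 without mutant 2); MPP genotype 4337 (125 with only vav-cre controls, 2792 in the joint fit, 2774 without mutant 2 to 4756); mutants 2845 (4729 in the joint fit, 582 without MPP mutant 2 to 5087 without LT-HSC mutant 3); controls 4942 (327 with only vav-cre controls, 3410 to 4873 when a library was left out); interaction 50 (339 with DESeq2, 87 without a filter, 0 with only vav-cre controls, 1 without MPP mutant 2 to 885 without LT-HSC mutant 3; its split of 30 higher and 20 lower became 30 and 11 with upper-quartile scaling). The causes were not tested. Counts of 0 to 44 limit Fosb and Atf3, and 5 to 39 limit Fos in LT-HSC.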
